A study of Rattus norvegicus and Mus musculus with 12 samples.

Results

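The Hox genes are the positional identity genes of the skeleton, and they were taken from the deposited tables by symbol: Hox, a cluster letter from a to d and a number, with antisense and opposite-strand transcripts left out. The rat table of 19687 genes held 31 such rows for 30 symbols, since Hoxa11 stood under 2 identifiers (ENSRNOG00000053884 and ENSRNOG00000059870). The mouse table of 28603 genes held 38, and 30 symbols were in both tables. The 8 symbols in the mouse table alone were Hoxa3, Hoxa5, Hoxa10, Hoxa13, Hoxb4, Hoxb6, Hoxb8 and Hoxd12, whose rat counterparts were not analysed here.

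The study asked which species gives the better cell model of osteoarthritis, and it sequenced RNA of primary chondrocytes, the cells that make and keep cartilage, from the joint surfaces of newborn rats and mice, used at their first passage. There were 3 libraries in each of 4 groups. The rat control group (RC) and the mouse control group (MC) were untreated, and the rat model group (RM) and the mouse model group (MM) received 20 ng/ml of interleukin-1β (IL-1β), an inflammatory cytokine, for 24 h. All rats carried the strain label SD (Sprague-Dawley). The strain labels of the mice ran from C57BL/6 to C57BL/8 over the MC libraries and from C57BL/7 to C57BL/9 over the MM libraries, whereas the methods name C57BL/6 alone. The methods speak of independent samples in each group but do not say that each came from its own animal, so the P values measure the spread between these samples, which may in part be technical. Which joints or limbs the cartilage came from is not given in the sources used here.

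Hox genes encode transcription factors that bind DNA through the homeodomain. They lie in clusters named Hoxa, Hoxb, Hoxc and Hoxd, and genes at the same place in different clusters form a numbered paralog group. Low-numbered genes are switched on early and toward the head, and high-numbered genes late and toward the tail and the ends of the limbs. In the skeleton they set the identity of vertebrae and limb segments, and fibroblasts and chondrocytes keep part of this pattern after they leave the embryo.

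On the mouse build GRCm38 the Hoxa genes lay at chr6:52155590-52260880, the Hoxb genes at chr11:96194316-96354012, the Hoxc genes at chr15:102921103-103036852 and the Hoxd genes at chr2:74668310-74765142. The deposited identifier of mouse Hoxd4 (ENSMUSG00000115956) was not in the annotation used, GENCODE M21, so that row has no position here. The annotation holds Hoxd4 under another identifier, ENSMUSG00000101174. Paralog group 10 held the highest Hox gene of each control group, Hoxc10 in rat and Hoxa10 in mouse, so the homeobox of the 3 mouse genes, the stretch of 180 coding bases for the homeodomain, is shown to set them side by side. It is from GRCm38 and reads in the direction of the coding strand, and the capitals mark the 50 positions at which the 3 genes differ. Hoxa10 is read from chr6:52232554-52232733 on the minus strand, Hoxc10 from chr15:102970848-102971027 on the plus strand, and Hoxd10 from chr2:74694141-74694320 on the plus strand.
Hoxa10: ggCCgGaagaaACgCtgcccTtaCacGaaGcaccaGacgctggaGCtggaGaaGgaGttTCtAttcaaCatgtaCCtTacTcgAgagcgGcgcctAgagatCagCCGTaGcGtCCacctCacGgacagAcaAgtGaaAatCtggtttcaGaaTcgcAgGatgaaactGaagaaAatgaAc
Hoxc10: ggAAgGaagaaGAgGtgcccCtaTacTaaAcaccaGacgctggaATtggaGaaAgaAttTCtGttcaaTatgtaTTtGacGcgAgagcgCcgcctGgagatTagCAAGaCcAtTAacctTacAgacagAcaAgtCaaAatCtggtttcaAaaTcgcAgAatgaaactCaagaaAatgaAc
Hoxd10: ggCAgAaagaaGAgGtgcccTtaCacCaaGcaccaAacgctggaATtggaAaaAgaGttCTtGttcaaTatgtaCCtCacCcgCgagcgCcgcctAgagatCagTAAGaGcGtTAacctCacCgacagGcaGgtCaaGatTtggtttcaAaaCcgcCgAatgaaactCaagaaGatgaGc

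Hoxa10 and Hoxc10 shared 145 of the 180 bases (80.6%), Hoxa10 and Hoxd10 shared 142, and Hoxc10 and Hoxd10 shared 149. The longest exact stretch that any pair of the 3 had in common over the whole coding sequence was 17 bases. Over all pairs of mouse Hox genes it was 52 bases, between Hoxa6 and Hoxb4. Overlapping exons were a second way in which genes could share reads. Of the mouse Hox genes with a position, 15 shared exon bases with another gene in the annotation. Hoxa11 shared 34.98% of its exon bases with the antisense transcript Hoxa11os, and Hoxc10 shared 8.70% with Hoxc5 on the same strand. Hoxa10 shared none. How the counting treated strand and overlap is not given in the sources used here, so reads of such partners cannot be told apart.

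Levels are given as FPKM, fragments per kilobase of gene length scaled to the sequencing depth of the library, and a gene is called expressed where the mean of the 3 libraries of a group was at least 1. Library totals were 20169272 to 25903459 counts in rat and 16841580 to 20048322 in mouse, so that 3 counts, the floor used for a gene at 0, came to 0.116 to 0.149 CPM (counts scaled to library size) in rat and 0.150 to 0.178 in mouse. Such floors cover counting error only. All 12 of the chondrocyte markers examined had an FPKM of at least 1 in both control groups. So had all 10 markers of fibroblasts and of synovial or perichondrial cells, which summed to 1921 to 2099 FPKM in RC and 566 to 576 in MC. Macrophage and leukocyte markers summed to 19.5 to 22.4 in RC and 7.35 to 7.51 in MC. Osteoblast markers summed to 8.27 to 9.16 in RC and 16.4 to 17.3 in MC. The endothelial markers summed to between 0.0888 and 0.136 FPKM in RC and between 0.448 and 0.636 in MC.

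In the RC group, 9 of the 31 rat Hox rows were expressed. They were 4 of 9 Hoxc genes, 4 of 8 Hoxd genes, 1 of 8 Hoxa rows and 0 of 6 Hoxb genes. In the MC group, 19 of 38 mouse Hox genes were expressed, with 8 of 9 Hoxc genes, 8 of 11 Hoxa genes, 3 of 9 Hoxd genes and 0 of 9 Hoxb genes. Hoxb genes were thus below the threshold throughout both species. The highest of them, Hoxb9 in mouse, had an FPKM of 0.598 ± 0.0263 (SD, n = 3), and Hoxb2, Hoxb3 and Hoxb5 in rat had 0 counts in all 6 libraries.

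Expressed genes were also counted by paralog group. Of paralog groups 1 to 3, which act in the hindbrain and neck, 0 of 6 rat rows and 1 of 7 mouse genes were expressed in the controls. The counts were 4 of 11 and 8 of 15 for groups 4 to 8, which pattern the thorax, and 5 of 14 and 10 of 16 for groups 9 to 13, which pattern the lumbosacral axis and the limbs. Groups 9 to 13 made up 71.3% ± 1.19 of the summed Hox FPKM in RC and 75.1% ± 0.547 in MC (SD, n = 3). The genes closest to the threshold were Hoxd11 (1.19) and Hoxc11 (0.964) in RC, and Hoxa3 (1.03) and Hoxd11 (0.776) in MC.

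**Figure D1:**
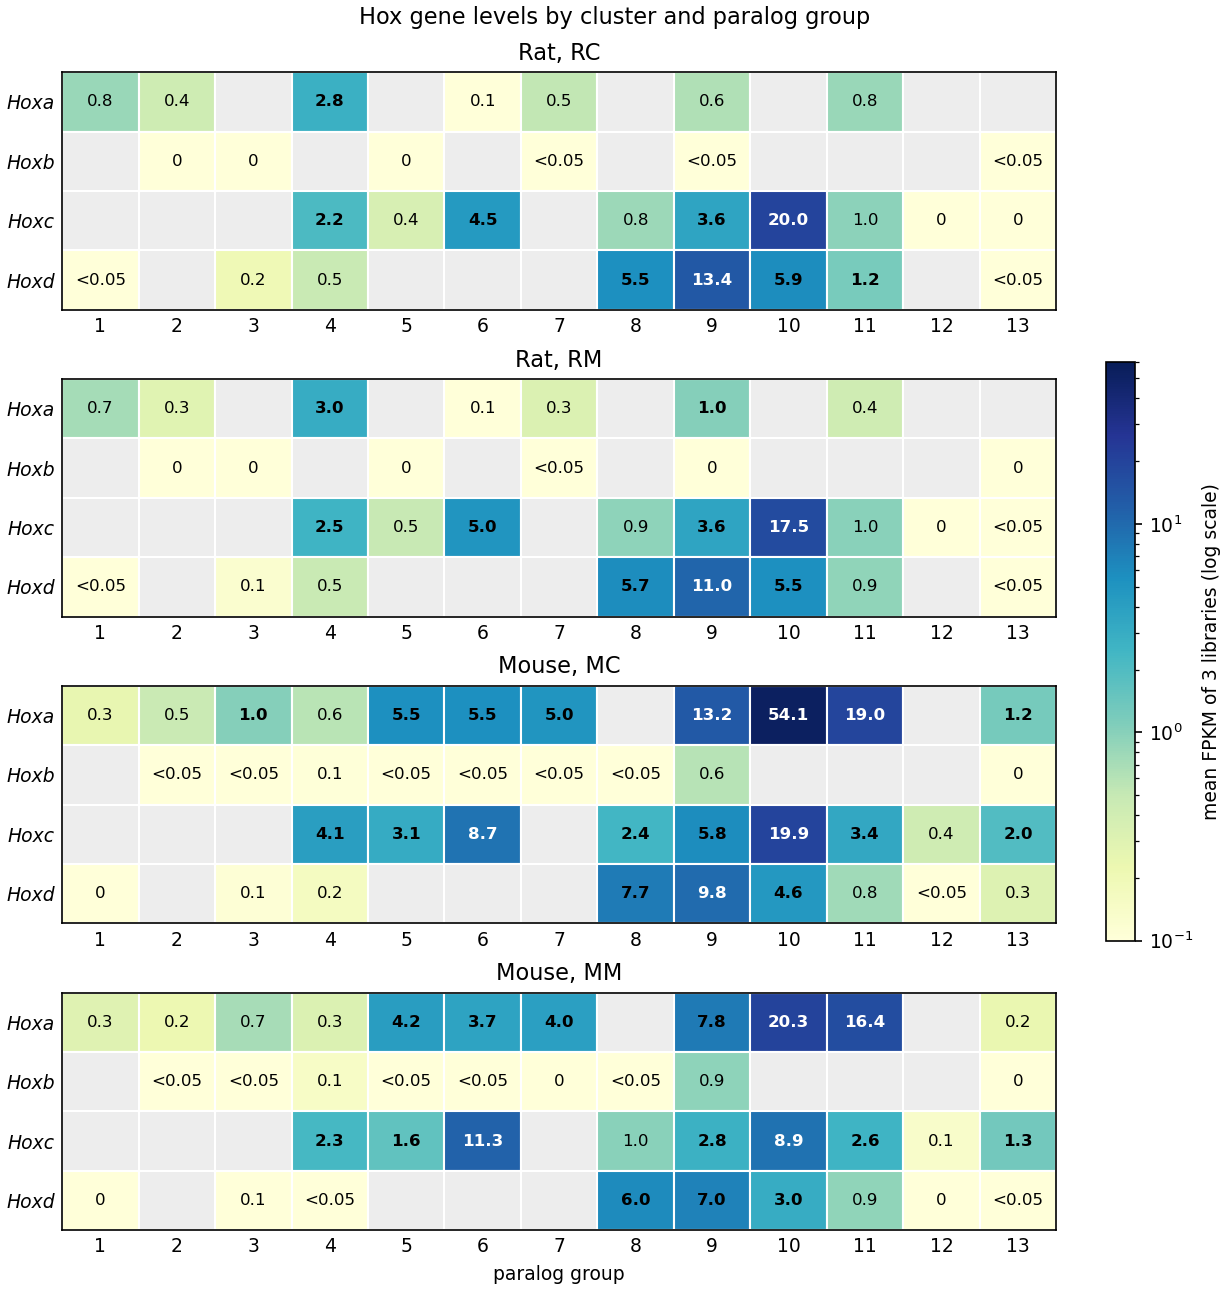
Mean FPKM of 3 libraries for each Hox gene in the RC, RM, MC and MM groups, with the cluster in rows, the paralog group in columns and colour on a log scale; bold marks a mean of at least 1, and grey cells have no row in the table (for rat Hoxa11 the higher of the 2 rows is shown). The highest values lie at groups 8 to 10 in RC and 9 to 11 in MC, and the Hoxb row stays under 1 in each group.

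Hoxc10 had the highest level in rat. It belongs to the genes that mark the hindlimb and the lumbar region, and in the 3 RC libraries its FPKM was 18.8, 21.3 and 19.9. Hoxd9, which acts with its paralogs in the upper limb segment, had 12.1, 15.2 and 13.02. These ranges did not overlap with each other, and Hoxd9 stood apart from the next gene. Hoxd10 followed with 6.23, 4.78 and 6.56, and Hoxd8 with 6.77, 4.87 and 4.96. Hoxd10 and Hoxd8 overlapped, and so did Hoxc6 (4.52 ± 0.265), Hoxc9 (3.61 ± 0.681) and Hoxa4 (2.84 ± 0.405), each with its neighbour in the order. Hoxc4 (2.16 ± 0.124) and Hoxd11 (1.19 ± 0.318) closed the list of expressed rat genes.

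In mouse the order was led by Hoxa10 (chr6:52231197-52240854), which patterns the upper hindlimb and lumbar vertebrae. Its FPKM in the MC libraries was 53.9, 53.2 and 55.1. It alone gave 29.1% to 30.6% of the summed Hox FPKM of a library. Hoxc10 (chr15:102966796-102971893) had 20.4, 20.0 and 19.4, and Hoxa11 (chr6:52242106-52245810), a gene of the forearm and shank segment, had 18.6, 20.0 and 18.5. These last 2 overlapped, while Hoxa9 (chr6:52223100-52231089) was lower than both, at 12.7, 13.56 and 13.4. Below them came Hoxd9 (9.78 ± 0.773), Hoxc6 (8.66 ± 0.670), Hoxd8 (7.72 ± 0.585) and Hoxc9 (5.76 ± 0.784). Hoxa5, Hoxa6, Hoxa7 and Hoxd10 lay between 4.59 and 5.52 and overlapped from one to the next. Hoxc4 (4.08), Hoxc11 (3.37), Hoxc5 (3.07), Hoxc8 (2.45), Hoxc13 (2.00), Hoxa13 (1.25) and Hoxa3 (1.03) were the lowest expressed genes.

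**Figure D2:**
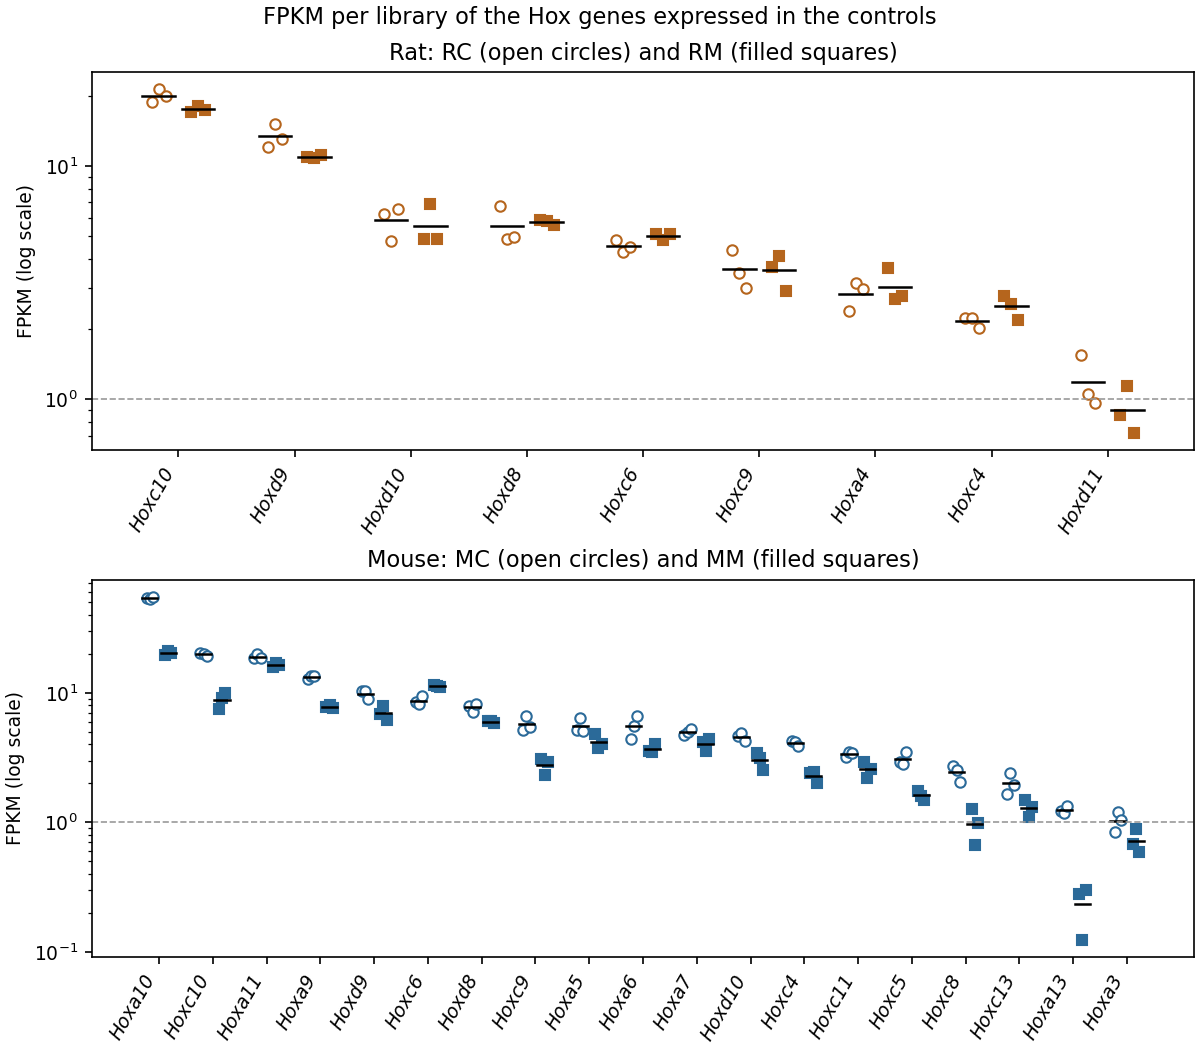
FPKM on a log scale of each Hox gene expressed in the control group, for rat above and mouse below; open circles are control libraries, filled squares are IL-1β libraries, black bars are means of 3 and the dashed line is at 1. Hoxc10 lies near 20 in both control groups, the rat groups overlap for most genes, and Hoxa10 in mouse drops from 54.1 to 20.3.

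The levels of the species are set side by side without a test, since they rest on different annotations. Hoxc10 had a mean FPKM of 19.97 in RC and 19.92 in MC, with gene lengths of 1802 and 1909 bases behind these values. Hoxc and Hoxd summed to 32.4 and 26.7 FPKM in RC and to 49.7 and 23.5 in MC. The Hoxa sum was 6.17 in RC and 105.9 in MC, but the rat sum holds no row for Hoxa10, Hoxa5, Hoxa3 or Hoxa13. The 7 Hoxa symbols in both tables summed to between 41.8 and 46.0 FPKM in the MC libraries and to between 5.73 and 6.74 in the RC libraries. Gene lengths also differed, with a median rat to mouse ratio of 0.603 over 25 genes. That ratio was 0.146 for Hoxa9 (816 against 5580 bases) and 3.93 for Hoxa6 (3437 against 874). A RefSeq table of the rat assembly GRCr8 lists Hoxa11 as another name of Hoxa2, Hoxa10 of Hoxa11 and Hoxa9 of Hoxa7. Names alone thus leave the symbols of the rat Hoxa rows uncertain. Rat Hoxa4, Hoxa7, Hoxa9 and Hoxa11 (ENSRNOG00000053884) had lengths of 858, 690, 816 and 942 bases. The coding sequences of their mouse namesakes held 855, 687, 813 and 939 bases, and that of mouse Hoxa2 held 1116. For these rows the lengths were close to those of the namesakes. Such rows may cover coding bases alone, which was not tested.

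What IL-1β changed was tested on counts with edgeR's quasi-likelihood test, in each species by itself, over all genes that passed the filter on low counts. A gene is said to have been called, or to be up- or downregulated, where the adjusted P was under 0.05. In rat, 1 of the 18 Hox genes tested was called, against 35.1% of all 13303 genes tested. That gene was Hoxd9, which was downregulated, and 16.8% of all genes tested were called in that direction. The other 13 rat rows had at most 40 counts over the 6 libraries and were not tested, and 4 of them had 0 counts in each.

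Hoxd9 (ENSRNOG00000001580) had an FPKM of 12.1, 15.2 and 13.02 in the RC libraries and of 10.9, 10.8 and 11.2 in the RM libraries. All RM values lay below all RC values. The log2 fold change was -0.31 (SE 0.099, adjusted P = 0.0343), a fall of 19.2% in that fit. This call was kept only without RC replicate 1, and was lost without any of the other 5 libraries (adjusted P up to 0.106). The log2 fold change was -0.22 without RC replicate 2 and -0.30 to -0.33 without the others of these 5. Hoxc10 (ENSRNOG00000016149) also had lower values in all RM libraries, at 16.98, 18.1 and 17.4 against 18.8, 21.3 and 19.9, but it was not called, with a log2 fold change of -0.21 (SE 0.079, adjusted P = 0.0663). Without RC replicate 1 it was called, with an adjusted P of 0.0113.

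For Hoxd10, the RM libraries had 4.89, 6.87 and 4.86 FPKM, which overlapped with RC. Its log2 fold change was -0.09 (SE 0.167). Hoxd8 had 5.85, 5.81 and 5.58 in RM and a log2 fold change of 0.04 (SE 0.175). Over the 7 Hoxc genes tested the log2 fold changes ran from -0.21 to 0.44, none of them called. Hoxc6, for example, had 5.01 ± 0.178 FPKM in RM against 4.52 ± 0.265 in RC, with a log2 fold change of 0.13 (adjusted P = 0.49). Hoxa11 (ENSRNOG00000053884) had the lowest log2 fold change of the rat Hox genes, -1.01 (SE 0.412, adjusted P = 0.0813), on 54 counts over RC and 27 over RM. It was the only rat Hox gene that met the criteria of the study for a differentially expressed gene (DEG), read here as P under 0.05 without adjustment, a log2 fold change beyond 0.85 up or down and 1 library or more with an FPKM of 1 or above. The methods write of a fold change and do not name the log scale or an adjustment. Of all genes tested 8.54% met them (3.9% down and 4.64% up). The FPKM of the groups did not overlap for 5 of the 18 genes, against 47.8% of all genes tested. The median log2 fold change was -0.02 over the rat Hox genes and 0.01 over all genes tested. The number of expressed rat Hox rows was 9 in RM as in RC, with Hoxa9 (1.03 ± 1.01) above the threshold and Hoxd11 (0.905 ± 0.213) below it. The Hoxa9 value rests on RM replicate 1, which had 36 counts where the other RM libraries had 7 and 11. Its log2 fold change of 0.59 (adjusted P = 0.523) became -0.55 without that library.

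In mouse, 13 of the 24 Hox genes tested were called, 10 downregulated and 3 upregulated, against 75% of all 14774 genes tested (37.7% down and 37.4% up). The 10 were Hoxa9, Hoxa10, Hoxa13, Hoxc4, Hoxc5, Hoxc8, Hoxc9, Hoxc10, Hoxd9 and Hoxd10, and the 3 were Hoxb9, Hoxc6 and Hoxd11. Of the tested genes of paralog groups 9 to 13, 7 of 12 were downregulated and 2 upregulated. Of groups 4 to 8, 3 of 9 were downregulated and 1 upregulated, and of groups 1 to 3 none of 3 was called (edgeR, adjusted P of 0.136 to 0.22). The median log2 fold change was -0.31 over the 24 Hox genes and -0.02 over all genes tested. Scaling by library size alone in place of TMM, edgeR's trimmed mean scaling, moved the median of all genes from -0.016 to -0.295 and that of the Hox genes from -0.308 to -0.586. In that fit 19 Hox genes were called down and 2 up, and over all genes 54.7% were called down and 25.04% up. FPKM are scaled to the library total, so ratios of the FPKM below lie closer to that scaling than the fold changes do.

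**Figure D3:**
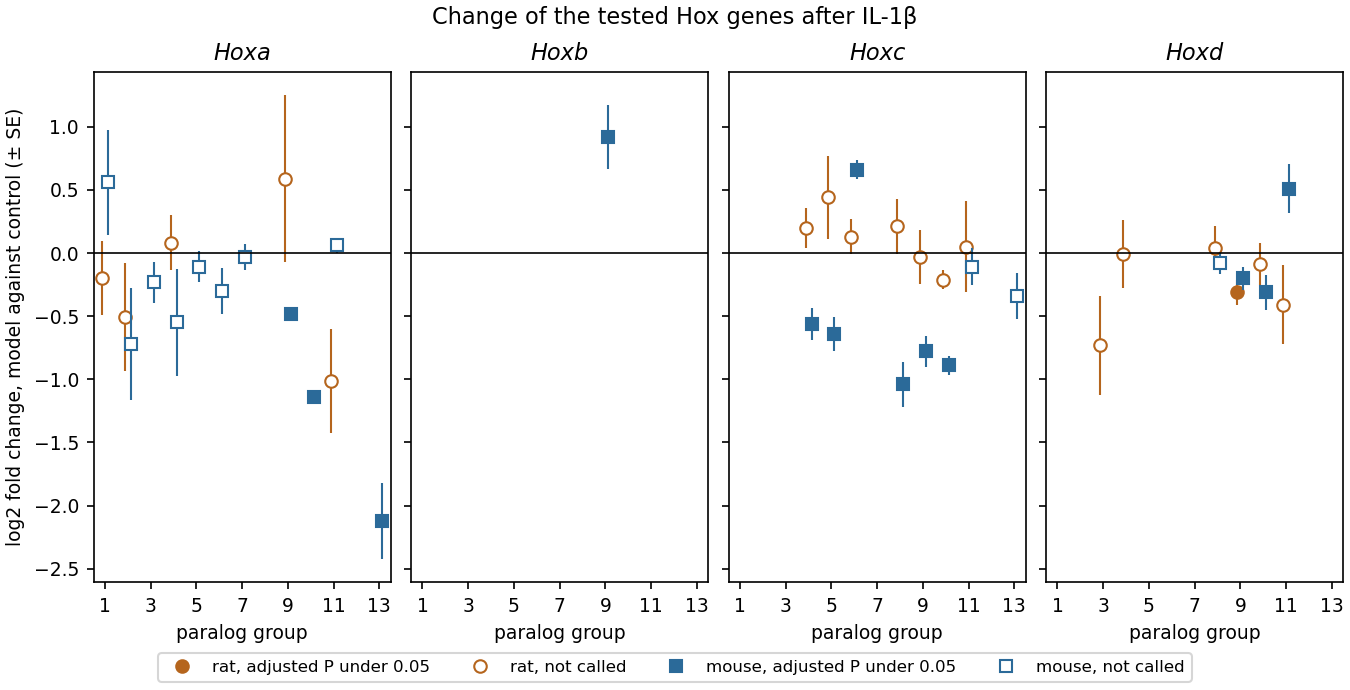
Log2 fold change of each tested Hox gene, IL-1β group against control group, with TMM scaling (y axis), by cluster and paralog group (x axis). Bars are SE derived from the test statistic of the fit on 3 libraries per group. Circles are rat and squares are mouse, filled where the adjusted P was under 0.05. Rat values have 1 filled point, Hoxd9, while in mouse 5 Hoxc genes lie below -0.5 and Hoxc6, which lies among them, is at 0.66.

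Hoxa10 fell most clearly. Its FPKM went from 53.9, 53.2 and 55.1 in MC to 19.6, 21.1 and 20.2 in MM, and the groups were far apart. The log2 fold change was -1.14 (SE 0.04, adjusted P = 3.32e-35), so the level fell by 54.5%. Leaving out single libraries gave values from -1.16 to -1.10. Its share of the summed Hox FPKM was 29.1% to 30.6% in MC and 18.1% to 19.4% in MM. On its flanks the values differed. Hoxa9 had 7.78, 7.98 and 7.66 FPKM in MM against 12.7, 13.56 and 13.4 in MC, without overlap, and a log2 fold change of -0.48 (SE 0.05, adjusted P = 2.1e-13). Hoxa11 had 15.9, 16.9 and 16.3 against 18.6, 20.0 and 18.5, also without overlap, but with TMM scaling its log2 fold change was 0.06 (SE 0.058, adjusted P = 0.327). With library size alone the direction of Hoxa11 turned, to -0.22 (adjusted P = 0.000718).

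Hoxa13 (chr6:52257694-52260880), which patterns the hand and foot, had 1.23, 1.18 and 1.33 FPKM in MC and 0.283, 0.124 and 0.301 in MM. The MM libraries held 14, 6 and 13 counts of it. Its log2 fold change of -2.12 (SE 0.302, adjusted P = 5.7e-09) was the lowest of the tested mouse Hox genes. The remaining 8 Hoxa genes tested were not called, with log2 fold changes from -0.72 to 0.56. Hoxa5, Hoxa6 and Hoxa7 had 5.52 ± 0.725, 5.52 ± 1.08 and 4.99 ± 0.248 FPKM in MC and 4.20 ± 0.528, 3.70 ± 0.309 and 4.04 ± 0.442 in MM. Their log2 fold changes were -0.11, -0.30 and -0.03. Hoxa6 was called without MC replicate 1 (-0.44, adjusted P = 0.0355), and Hoxa3 without MM replicate 2 (-0.40, adjusted P = 0.0458).

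Within Hoxc, 5 of 8 tested genes fell and 1 rose, beside 37.7% and 37.4% of all genes tested. Hoxc10 had 20.4, 20.0 and 19.4 FPKM in MC and 7.55, 9.13 and 9.92 in MM, with a log2 fold change of -0.89 (SE 0.076, adjusted P = 1.29e-16). Hoxc8 (chr15:102990607-102994111), a gene of the thorax, had 2.74, 2.56 and 2.05 in MC and 1.27, 0.668 and 0.990 in MM, with a log2 fold change of -1.04 (SE 0.178, adjusted P = 4.79e-07). Neither gene had overlapping groups. The other 3 genes that fell were Hoxc9 (log2 fold change -0.78, adjusted P = 4.95e-08), Hoxc5 (-0.64, adjusted P = 2.83e-05) and Hoxc4 (-0.56, adjusted P = 8.21e-05). Hoxc5 and Hoxc10 share exon bases, as given above. Hoxc6 (chr15:102998257-103011881), which lies between Hoxc8 and Hoxc4 inside the long span annotated for Hoxc5 (chr15:102967443-103017429) and shares no exon bases with it, went the other way. It acts in the anterior thorax. It had 8.42, 8.14 and 9.41 FPKM in MC and 11.5, 11.3 and 11.1 in MM, with no overlap, and a log2 fold change of 0.66 (SE 0.075, adjusted P = 5.84e-12). The rise was smaller but still called with library size alone (0.38, adjusted P = 6.05e-06). The last 2 tested genes of the cluster, Hoxc11 and Hoxc13, had log2 fold changes of -0.11 and -0.34 and were not called. Without MC replicate 1 Hoxc13 was called (-0.45, adjusted P = 0.0346).

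Of the 4 Hoxd genes tested in mouse, 2 were called down and 1 up, beside 37.7% and 37.4% of all genes tested. Hoxd9 had 10.2, 10.2 and 8.89 FPKM in MC and 6.84, 7.95 and 6.19 in MM, and a log2 fold change of -0.20 (SE 0.09, adjusted P = 0.0401). Hoxd10 had 4.59 ± 0.307 and 3.03 ± 0.465, and a log2 fold change of -0.31 (SE 0.139, adjusted P = 0.0377). Each of these calls held in 2 of the 6 fits that left out 1 library, and Hoxd9 lost it without MC replicate 1, MC replicate 2, MM replicate 1 or MM replicate 3, with log2 fold changes of -0.12 to -0.18. Hoxd10 lost it without MC replicate 1, MC replicate 2, MM replicate 2 or MM replicate 3, with values of -0.20 to -0.33. Hoxd11, which works with Hoxa11 in the forearm, had overlapping groups at 0.776 ± 0.0843 and 0.913 ± 0.226 FPKM. It was called up, at 0.51 (SE 0.194, adjusted P = 0.0159), but not without MC replicate 2, MM replicate 1 or MM replicate 3, and not with library size alone (0.23, adjusted P = 0.271). Hoxd8 was not called (-0.08, adjusted P = 0.365).

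Hoxb9 (chr11:96271457-96276595), the last gene of the Hoxb cluster before Hoxb13, was the 1 Hoxb gene tested. It had 26, 25 and 29 counts in MC and 42, 41 and 54 in MM, or 0.598 ± 0.0263 and 0.943 ± 0.223 FPKM, and rose by 0.92 on the log2 scale (SE 0.252, adjusted P = 0.000878). Its mean stayed below the threshold for expression. The other 8 Hoxb genes had at most 36 counts over 6 libraries, and Hoxb13 had 0.

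By the criteria of the study, 5 mouse Hox genes qualified, against 25.6% of all genes tested (13% down and 12.6% up). They were Hoxa10, Hoxa13, Hoxc8 and Hoxc10 among the downregulated genes and Hoxb9 among the upregulated ones. The FPKM did not overlap between MC and MM for 19 of the 24 genes, against 80.3% of all genes tested. The number of expressed Hox genes was 19 in MC and 16 in MM, and Hoxa3 (0.718), Hoxa13 (0.236) and Hoxc8 (0.975) were those below 1 in MM alone. Among the 14 genes not tested, which had at most 46 counts over 6 libraries, Hoxd13 had 6, 18 and 16 counts in MC and 2, 1 and 3 in MM. Without the filter on low counts it had a log2 fold change of -2.51 (adjusted P = 0.000292), and it was singled out after its values were seen.

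The summed FPKM of all Hox genes was 179.9 ± 2.92 in MC and 108.3 ± 0.121 in MM (SD, n = 3), and in rat 65.3 ± 1.41 in RC and 60.7 ± 2.14 in RM. By cluster, the mouse Hoxa sum went from 105.9 ± 2.61 to 58.2 ± 0.528, Hoxc from 49.7 ± 0.638 to 31.8 ± 0.764, and Hoxd from 23.5 ± 0.601 to 17.1 ± 1.11. Hoxb had 0.817 ± 0.121 and 1.18 ± 0.226. Paralog groups 9 to 13 gave 75.1% ± 0.547 of the sum in MC and 66.7% ± 1.26 in MM, and 71.3% ± 1.19 in RC and 67.4% ± 1.37 in RM. These sums were not tested. In RNA of whole cultures, fewer cells that express a gene and less of its RNA per cell cannot be told apart.

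Ratios between Hox genes of one library do not depend on the scaling between libraries. They are given for 8 pairs, 5 in mouse and 3 in rat, as a description with no test, since the pairs were chosen for genes already seen to change unequally in mouse. Hoxa10 over Hoxa11 was 2.90, 2.66 and 2.98 in MC and 1.23, 1.25 and 1.24 in MM. Hoxa10 over Hoxa9 was 4.08 ± 0.156 in MC and 2.60 ± 0.0718 in MM (SD over 3 libraries). These are the genes beside Hoxa10 on the chromosome, of which Hoxa9 had the smaller fold change given above and Hoxa11 was not called. Hoxc8 over Hoxc6 was 0.326, 0.314 and 0.217 in MC and 0.111, 0.0589 and 0.0896 in MM, and Hoxc5 over Hoxc6 was 0.354 ± 0.0116 and 0.144 ± 0.00911. Hoxc10 over Hoxc11 was 5.92 ± 0.429 and 3.52 ± 0.818. In rat, Hoxc8 over Hoxc6 was 0.180 ± 0.0271 in RC and 0.188 ± 0.0228 in RM, Hoxc5 over Hoxc6 was 0.0781 ± 0.0208 and 0.0979 ± 0.0303, and Hoxc10 over Hoxc11 was 22.2 ± 6.45 and 19.0 ± 6.28. The RC and RM ranges overlapped in each of these 3 pairs.

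**Figure D4:**
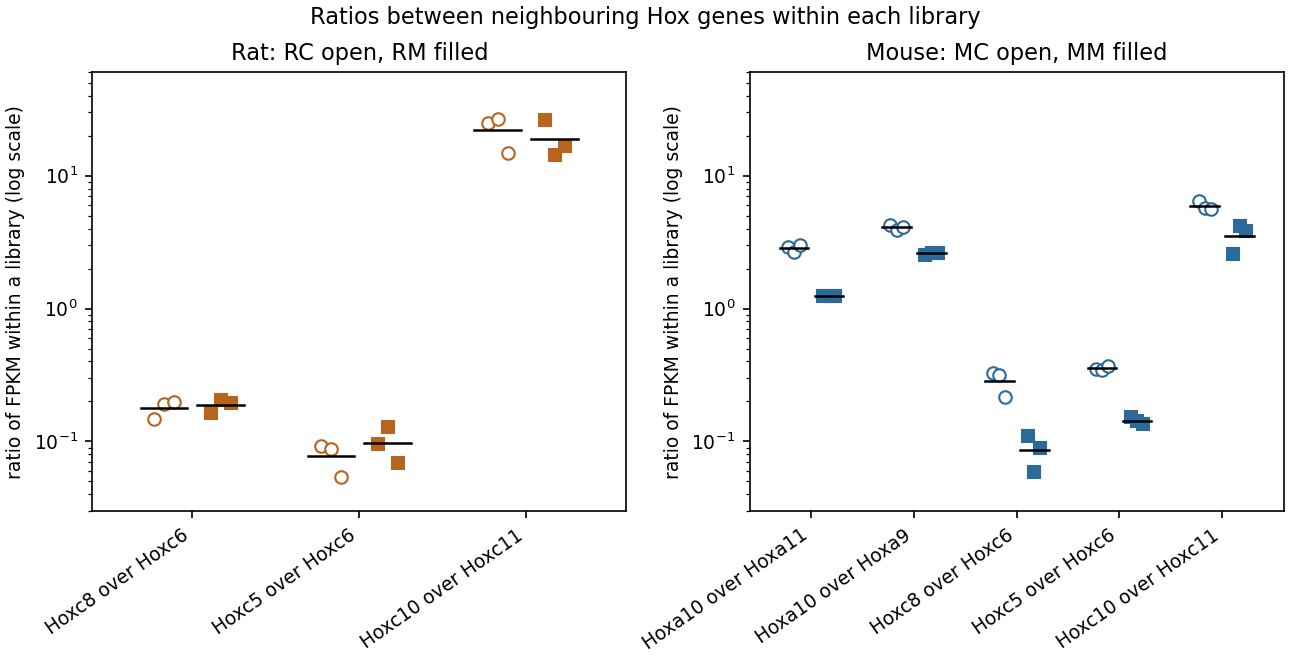
Ratio of the FPKM of pairs of Hox genes within each library (log scale), for rat on the left and mouse on the right; open circles are control libraries, filled squares are IL-1β libraries and black bars are means of 3. The pairs were chosen after the levels were seen; Hoxa10 over Hoxa11 in mouse, for example, lies at 2.66 to 2.98 in MC and at 1.23 to 1.25 in MM.

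Whether a Hox gene responded differently in the species was tested directly, by subtracting the rat change from the mouse change in a joint fit of the 12 libraries, over symbols found in both tables. That fit gave each gene 1 estimate of spread for both species. The common spread between replicates (biological coefficient of variation) was 0.106 in rat and 0.0318 in mouse. The SE of a difference could thus lie below that of the rat change alone, as for Hoxa11 (0.32 against 0.412). The adjusted P values of the differences may therefore overstate the precision of the rat part. Of the 16 Hox genes tested, 8 differed, against 63.7% of all 10951 genes tested. The change was smaller, that is further down, in mouse for 5 of them (against 32.3% of all genes) and larger in mouse for 3 (against 31.4%). All 5 were Hoxc genes, a cluster with 7 genes in the test, of which Hoxc6 went the other way and Hoxc11 was not called. Hoxa10 and Hoxa13, which fell in mouse, had no rat row and could not enter the test. Hoxc8 changed by 0.21 on the log2 scale in rat (not called) and by -1.04 in mouse, a difference of -1.26 (SE 0.31, adjusted P = 0.00186). Hoxc5 differed by -1.08 (SE 0.31, adjusted P = 0.0067), Hoxc4 by -0.75 (SE 0.18, adjusted P = 0.00153), Hoxc9 by -0.74 (SE 0.25, adjusted P = 0.0145) and Hoxc10 by -0.68 (SE 0.12, adjusted P = 0.000116). In rat none of these 5 genes was called, with log2 fold changes of -0.21 to 0.44. The Hoxc9 difference was not called without RM replicate 2 (adjusted P = 0.0563).

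The change was larger in mouse for Hoxc6, by 0.53 (SE 0.13, adjusted P = 0.0022), for Hoxd11, by 0.92 (SE 0.37, adjusted P = 0.0404), and for Hoxa11, by 1.08 (SE 0.32, adjusted P = 0.00757). The Hoxc6 difference was called in each of the 12 fits that left out 1 library, but with library size alone it was 0.24 (adjusted P = 0.123). That of Hoxd11 was called in 5 of the 12, and was not called without RC replicate 1, RM replicate 1, RM replicate 3, MC replicate 1, MC replicate 2, MM replicate 1 or MM replicate 3, with adjusted P up to 0.139. That of Hoxa11 was not called without RC replicate 2 (adjusted P = 0.0638). It rests on the rat row with 54 and 27 counts, whose symbol the names alone leave uncertain, as set out above. The other 8 genes, among them Hoxd8, Hoxd9 and Hoxd10, had differences of -1.0 to 0.75 that were not called. The lowest was that of Hoxa9, which was called without RC replicate 1 (-1.54, adjusted P = 0.0175) or RM replicate 2 (-1.46, adjusted P = 0.0146) and was 0.09 without RM replicate 1. For Hoxd9, the gene called down in both species, the difference was 0.11 (SE 0.15, adjusted P = 0.558), and with library size alone its sign turned, to -0.19.

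Markers of cell types were examined in the same libraries. Of all genes tested, 18.3% were called up and 16.8% down in rat, and 37.4% up and 37.7% down in mouse. No marker list was tested against these shares. All 12 chondrocyte markers fell in both species, and their summed FPKM went from between 5273 and 5932 in RC to between 2086 and 2123 in RM, and from between 2506 and 2557 in MC to between 219 and 233 in MM. Of 10 markers of fibroblasts and of synovial or perichondrial cells, 4 rose and 1 fell in rat (1921 to 2099 FPKM in RC, 1990 to 2047 in RM), and 5 rose and 4 fell in mouse (566 to 576 in MC, 1504 to 1514 in MM). Osteoblast markers fell from between 8.27 and 9.16 FPKM to between 2.07 and 3.02 in rat, with 2 of 3 tested genes called, and from between 16.4 and 17.3 to between 1.74 and 1.86 in mouse, with 6 of 6 called. Macrophage and leukocyte markers summed to 19.5 to 22.4 FPKM in RC and 31.2 to 34.2 in RM (2 up and 2 down of 4 tested), and to 7.35 to 7.51 in MC and 34.4 to 37.0 in MM (4 of 4 up). The defining gene Itgam had 0 counts in both mouse groups, and Adgre1 had 0 in MM. Of the endothelial, muscle and neural markers, no list reached a summed FPKM of 3 in any library, and their tested members were 3 in rat, with none called, and 5 in mouse, with 2 up and 3 down. The part of these shifts in the Hox results was not tested.

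Hox proteins bind DNA together with TALE homeodomain proteins, such as the Meis and Pknox families. Of 11 TALE genes tested, 3 were up and 1 down in rat, and 4 were up and 4 down in mouse, with medians of -0.15 in both, beside medians of 0.01 and -0.02 over all genes. For this and the next lists, the shares of all genes tested were 18.3% up and 16.8% down in rat and 37.4% up and 37.7% down in mouse, and no list was tested against them. Meis1, a cofactor of the upper limb, rose in rat from 3.98 ± 0.0262 to 6.11 ± 0.639 FPKM (log2 fold change 0.60, adjusted P = 0.000969), and was not called in mouse (-0.27, adjusted P = 0.0687) except without MC replicate 1 or MM replicate 1 or with library size alone (-0.55, adjusted P = 0.000229). Pknox2 fell in both species (-0.71 in rat, adjusted P = 0.0071, and -2.65 in mouse, adjusted P = 9e-29), and Tgif1, a repressor of the same family, rose in both (0.88 and 2.41).

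Limb identity is also set by T-box and Pitx factors. Tbx4, which marks the hindlimb, was present at 8.54 ± 0.194 FPKM in RC and 24.3 ± 1.34 in MC, and was called in neither species, with log2 fold changes of -0.21 (adjusted P = 0.145) and -0.09 (adjusted P = 0.0932). In mouse it was called without MC replicate 2 or MM replicate 3 (-0.13 in both) and with library size alone (-0.37, adjusted P = 2.31e-10). Tbx5, which marks the forelimb, was present beside it at 4.24 ± 0.236 in RC and 8.25 ± 0.590 in MC, so RNA of both limb markers was found in the same libraries. Tbx5 fell in both species, by 0.47 in rat on the log2 scale (adjusted P = 0.00614) and by 1.24 in mouse (adjusted P = 1.44e-22). Pitx1, the hindlimb factor upstream of Tbx4, went from 118.7 ± 0.795 to 42.3 ± 0.556 FPKM in mouse (-1.21, adjusted P = 1.08e-40) and from 84.3 ± 7.40 to 72.8 ± 5.87 in rat (-0.23, adjusted P = 0.0662). The rat change of Pitx1 was called without RC replicate 1 (-0.31, adjusted P = 0.00251). The difference between the species was -0.98 for Pitx1 (adjusted P = 8.28e-08), -0.77 for Tbx5 (adjusted P = 6.18e-05) and 0.13 for Tbx4 (adjusted P = 0.381). In the whole list of limb factors, 4 of 19 tested genes rose and 3 fell in rat (median -0.21), and 7 of 22 rose and 10 fell in mouse (median -0.20). Fgf10, the growth factor that starts limb outgrowth, rose by 2.13 in rat (adjusted P = 1.25e-07) and 2.01 in mouse (adjusted P = 5.01e-42). Tbx3 rose by 1.54 in rat and 2.95 in mouse, Shox2 fell by 0.52 in rat and was called up in mouse (0.31, adjusted P = 4.68e-09, but 0.03 and not called with library size alone), and Prrx2, a homeobox gene of limb mesenchyme, fell by 3.05 in mouse (adjusted P = 1.35e-52) and was not called in rat (0.06, adjusted P = 0.67).

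Of the positional factors of the axial and head skeleton, 3 of 11 tested genes rose and 8 fell in mouse (median -1.12), and 1 of 9 rose and 3 fell in rat (median -0.37). Barx1, a homeobox gene of joints and jaw, fell in both species (-0.79 in rat, -1.12 in mouse), as did Dlx5 (-1.75 and -2.14) and Nkx3-2 (-0.78 and -1.25). Meox1 fell in mouse (-4.72) and was not tested in rat. Meox2 rose in mouse (1.46) and in rat (0.39, adjusted P = 0.0373), where the call held in 1 of the 6 fits that left out 1 library, that without RC replicate 1. Polycomb and trithorax proteins hold Hox clusters off or on. Of 19 tested genes of this list in rat, 6 rose and 4 fell (median 0.04), and of 21 in mouse 10 rose and 7 fell (median 0.09). Ezh2, the methyltransferase of Polycomb repressive complexes, rose in rat (0.76, adjusted P = 0.000301) and fell in mouse (-1.35, adjusted P = 7.81e-21), a difference of -2.11 (adjusted P = 2.59e-09). Ring1 fell in both species (-0.39 in rat, -0.37 in mouse), and Phc2 rose in both (0.33 and 0.97). Suz12 also rose in both (0.57 and 1.0), in rat not without RC replicate 3 or RM replicate 2. Kdm6b fell in rat (-0.48) and was called up in mouse (0.32, adjusted P = 6.48e-09, but 0.04 and not called with library size alone).

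Retinoic acid is a classic inducer of Hox genes. Of its pathway 1 of 11 tested genes rose and 6 fell in rat (median -0.43), and 7 of 14 rose and 5 fell in mouse (median 0.05). The receptor gene Rxra fell in both (-0.46 and -0.98), and Rarg fell in rat from 74.7 ± 5.17 to 42.6 ± 3.71 FPKM (-0.83, adjusted P = 3.83e-05). In mouse Rarg was called up (0.12, adjusted P = 0.00128), and with library size alone its sign turned (-0.16). In mouse the synthesis gene Aldh1a1 fell (-3.35, adjusted P = 2.45e-45) and Cyp26b1, which breaks retinoic acid down, rose (0.59, adjusted P = 1.29e-14). Cyp26b1 fell in rat (-0.71, adjusted P = 0.00231), a difference of 1.31 (adjusted P = 4.71e-08), and Aldh1a1 was not tested there. Of the noncoding transcripts of the mouse Hox loci, 8 of the 9 listed were in the table, 4 were tested and 1 was called. Hoxaas2 went from 0.514 ± 0.108 to 0.222 ± 0.0781 FPKM (log2 fold change -0.95, adjusted P = 0.00767), a call that was lost without MC replicate 3 or MM replicate 2. Hoxa11os, the antisense partner of Hoxa11, had 0.508 ± 0.0377 in MC and 0.431 ± 0.0511 in MM and was not called (adjusted P = 0.89).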

How the data were processed

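Groups were taken from the library labels. The authors deposited, for each species, a table of raw read counts per Ensembl gene and the FPKM made from them; each FPKM equalled count over gene length over column total within 0.1%. The submitters' processing notes name HISAT2, HTSeq 0.11.2, GRCm38 and Rnor_6.0; the notes and the methods do not give the strand setting or the annotation release. The implied lengths of 35 mouse Hox genes equalled the exon lengths of GENCODE M21 within 1 base, and that annotation gave positions and sequences. Counts were fitted per species with edgeR 4.0.16 (filterByExpr, TMM, glmQLFit, glmQLFTest, R 4.3.3), with Benjamini-Hochberg adjustment over all genes tested. Each SE was derived from the test, as the absolute log2 fold change or difference over the square root of the F statistic. The difference between species was the interaction over 14402 shared symbols, scaled inside each species; where a symbol had several rows, that with the most counts was used. Library totals, which bear on the precision, are given in the report. The spread between replicate libraries bears on it too, with a common biological coefficient of variation of 0.106 in rat and 0.0318 in mouse. The Hox genes and the companion and marker lists were chosen with earlier results of these data known, so no list was tested as a set. Hox genes were named where their mean FPKM was at least 1 in a group or where they were called. Libraries were given singly for called genes with a log2 fold change beyond 0.85 up or down and a mean FPKM of at least 1, and for the 4 highest genes of each control group; Hoxb9, Hoxc6, Hoxd9 in mouse and Hoxd13 were added after their values were seen. Of each companion list Tbx4, Tbx5 and Pitx1 were named always, and otherwise the 3 called genes per species with the smallest adjusted P and an FPKM of at least 1; Hoxa11os and Hoxaas2 were added. Some genes that this rule names are not reported here. Alternatives were library size alone, RLE factors, DESeq2 1.42.0, no filter on low counts, limma 3.58.1 on log2(FPKM + 1) and log2(FPKM + 0.1), a replicate block, other FPKM thresholds and leaving out each library. Replicate libraries of a group differed by more than sampling noise, so none was counted as a duplicate. Replicate numbers recur in each group, but libraries of the same number did not deviate together.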

Additional observations from a re-analysis of the deposited data

Results flagged for a closer look

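The change after IL-1β differed between mouse and rat, by the direct test of the difference, for 8 of 16 Hox genes. Mouse minus rat on the log2 scale was -1.26 for Hoxc8, -1.08 for Hoxc5, -0.75 for Hoxc4, -0.74 for Hoxc9 and -0.68 for Hoxc10. It was 0.53 for Hoxc6, 0.92 for Hoxd11 and 1.08 for Hoxa11. Across all genes tested 63.7% differed in this test. The Hoxd11 difference was called in 5 of the 12 fits that left out 1 library. With library size alone neither the Hoxc6 nor the Hoxd11 difference was called. The Hoxa11 difference rests on a rat row with 54 and 27 counts.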

How the results depend on the processing

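Hox genes called down in rat numbered 1, and 0 with limma on log2(FPKM + 1) or on log2(FPKM + 0.1); without 1 library the count ran from 0 to 2. None was called up in rat in any fit run, DESeq2 included. In mouse 10 were called down, 19 with library size alone, 18 with limma at either pseudocount and 4 by the criteria of the study, and 8 to 11 without 1 library; 3 were called up, 1 by the criteria of the study, and 2 to 3 without 1 library. Differences larger in mouse numbered 3, and 1 with library size alone, 1 with limma on log2(FPKM + 1) and 0 with limma on log2(FPKM + 0.1), and 2 to 3 without 1 library; those smaller in mouse numbered 5, and 7 with library size alone or limma at either pseudocount, 6 with the replicate block and 5 to 6 without 1 library. At a mean FPKM of at least 0.5, 15 rat rows were expressed in RC in place of 9; leaving out 1 library gave 9 to 10 in RC, 9 in RM, 18 to 19 in MC and 16 to 19 in MM. The sign turned for Hoxa11 in mouse (-0.22 with library size alone, -0.20 and -0.21 with limma) and for the Hoxd9 difference (-0.19, -0.17 and -0.20), from 0.06 and 0.11. Leaving out 1 library turned the sign of uncalled values: in rat Hoxa4 (-0.07 to 0.16), Hoxa9 (-0.55 to 1.12), Hoxc9 (-0.15 to 0.11), Hoxc11 (-0.17 to 0.35), Hoxd4 (-0.11 to 0.14) and Hoxd8 (-0.06 to 0.19), in mouse Hoxa7 (-0.08 to 0.07), and in the differences Hoxa2 (-0.68 to 0.10), Hoxa9 (-1.54 to 0.09) and Hoxc11 (-0.48 to 0.04). The cause was not tested. The replicate block gave 1 rat gene down and 10 down and 3 up in mouse, and made 1 further difference pass, that of Hoxa9 (-1.11, adjusted P = 0.00572); the same-numbered libraries had correlations of their deviations of 0.024, -0.098 and 0.085 in rat and 0.001, 0.015 and 0.005 in mouse. Most Hoxb genes and 3 of the 8 rat Hoxa rows had too few counts to be tested. So had 2 of 9 Hoxc and 2 of 8 Hoxd genes in rat, and 1 of 9 Hoxc and 5 of 9 Hoxd genes in mouse. Whether depth or low expression lay behind this was not tested.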
